A study of Mus musculus with 663 samples.

Results

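The surface of the fetal ovary is covered by an epithelium that shares many genes with mesothelium, the lining of the body cavities. Here 10 such genes were followed in single cells of the developing mouse ovary: the keratins Krt7, Krt8, Krt18 and Krt19, the uroplakins Upk1b and Upk3b, and the mesothelial genes Msln, Muc16, Lrrn4 and Gpm6a. They were taken by name from a table of 43320 usable gene names, and all 10 were found. The table held 662 cells in 12 captures, a capture being 1 run of a microfluidic chip. By their labels the cells came from XX gonads of mice of mixed background that carried a NR5A1-eGFP reporter. They covered 5 embryonic days and postnatal day 6 (P6). E10.5 had 71 cells in 1 capture, E11.5 had 106 in 2, E12.5 had 53, 53 and 57 in 3, E13.5 had 106 in 2, E16.5 had 55 and 40 in 2, and P6 had 55 and 66 in 2. Every group carried the reporter and was sorted for it, so gonadal cells that the sort rejected for lack of eGFP were not sampled at any stage. Values are RPKM, reads scaled to the length of the gene and to the size of the library, and levels of different genes are compared here on that per-length scale.

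In GRCm38 the keratin genes Krt7 (101411043 to 101430313, plus strand), Krt8 (101996698 to 102004482, minus) and Krt18 (102028180 to 102032027, plus) lie on chromosome 15, and Krt19 (100140810 to 100148665, minus) on chromosome 11. Upk1b lies on chromosome 16 (38773184 to 38800328, minus), Upk3b on 5 (136038496 to 136046487, plus), Msln on 17 (25748613 to 25754378, minus), Muc16 on 9 (18495455 to 18674530, minus), Lrrn4 on 2 (132868305 to 132880891, minus) and Gpm6a on 8 (54954843 to 55060871, plus). Keratins of simple epithelia form filaments from pairs of a type I and a type II chain, and Krt18 and Krt19 are type I whereas Krt8 and Krt7 are type II. Krt8 and Krt18 are the first keratins of the embryo and are found in most simple epithelia, while Krt7 and Krt19 mark narrower sets, among them mesothelium. Uroplakins are membrane proteins known from the urothelium, and Upk1b and Upk3b are also made by mesothelial cells. Msln encodes mesothelin, a surface protein that binds the large mucin encoded by Muc16, and Lrrn4 and Gpm6a encode membrane proteins found in mesothelium, with neural roles known for both.

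The smallest steps between values put the median depth of a cell at 1.89 to 3.20 M reads in 11 captures, and medians of 3640 to 7976 genes were detected. The second E12.5 capture stood apart, at 0.148 M reads, where 1 read of Krt18 was worth 4.72 RPKM. It also went against its XX label: 40 of its 53 cells held a Y-linked transcript at 1 RPKM or more, against 1 cell in all other captures together. Nr5a1 itself, the gene behind the reporter, averaged 13.9 to 72.8 RPKM in the 12 captures. The titles name an earlier and a later sequencing series. E16.5, P6 and capture 3 of E12.5 belong to the later one, and all other captures to the earlier one.

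The promoters of members whose levels are set beside each other below are shown first. Krt8 and Krt18 are neighbours on chromosome 15. Krt7, Lrrn4 and Gpm6a had ranks 3, 10 and 22 by mean correlation with Upk3b across cells, though few cells held Lrrn4 or Gpm6a. The table of RefSeq promoters used here (GRCm38.p6) was matched for 7 of the 10 genes, and those of Upk1b, Krt19 and Msln were not analysed here. Each line holds the 250 bases before the start, 5′ to 3′ on the strand of the gene: Upk3b at chr5:136038246-136038495 on the plus strand, Lrrn4 at chr2:132880863-132881112 on the minus strand, Gpm6a at chr8:54779184-54779433 on the plus strand for the first of its 2 starts, Krt7 at chr15:101412153-101412402 on the plus strand, Krt8 at chr15:102004343-102004592 on the minus strand and Krt18 at chr15:102027966-102028215 on the plus strand. Capitals mark matches on either strand to GGAATG, the core bound by TEAD factors, or to GGGCGG, the GC box bound by Sp1.
Upk3b: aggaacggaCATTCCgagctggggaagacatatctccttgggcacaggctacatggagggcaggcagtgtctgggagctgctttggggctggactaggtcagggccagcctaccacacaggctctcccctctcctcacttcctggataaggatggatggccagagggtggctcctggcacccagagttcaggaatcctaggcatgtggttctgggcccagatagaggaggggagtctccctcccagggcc
Lrrn4: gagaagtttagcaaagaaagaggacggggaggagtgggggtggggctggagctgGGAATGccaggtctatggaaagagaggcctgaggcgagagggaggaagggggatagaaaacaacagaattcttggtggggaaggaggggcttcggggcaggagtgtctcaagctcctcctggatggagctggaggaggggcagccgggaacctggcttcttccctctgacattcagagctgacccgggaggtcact
Gpm6a: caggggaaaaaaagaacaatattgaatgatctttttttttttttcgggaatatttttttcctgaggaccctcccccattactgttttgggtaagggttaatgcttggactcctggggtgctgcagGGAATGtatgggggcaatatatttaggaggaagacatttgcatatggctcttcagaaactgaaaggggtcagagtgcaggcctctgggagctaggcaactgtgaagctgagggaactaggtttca
Krt7: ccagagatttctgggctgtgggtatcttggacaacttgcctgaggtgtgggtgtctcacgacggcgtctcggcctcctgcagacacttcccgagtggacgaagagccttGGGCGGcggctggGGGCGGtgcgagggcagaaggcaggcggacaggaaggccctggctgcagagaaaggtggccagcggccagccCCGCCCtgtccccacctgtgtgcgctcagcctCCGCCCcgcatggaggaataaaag
Krt8: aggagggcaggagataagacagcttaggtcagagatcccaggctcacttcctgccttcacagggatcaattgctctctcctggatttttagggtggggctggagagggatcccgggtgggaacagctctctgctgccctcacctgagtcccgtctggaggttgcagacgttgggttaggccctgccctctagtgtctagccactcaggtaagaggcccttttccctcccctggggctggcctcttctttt
Krt18: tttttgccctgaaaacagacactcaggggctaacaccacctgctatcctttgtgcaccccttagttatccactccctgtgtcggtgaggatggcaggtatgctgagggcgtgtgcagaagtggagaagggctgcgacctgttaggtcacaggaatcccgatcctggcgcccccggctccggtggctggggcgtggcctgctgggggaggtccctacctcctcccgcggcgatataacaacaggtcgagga

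A TEAD core stood in the promoters of Upk3b and Lrrn4 and at the first start of Gpm6a, and in 12.6% of the 32851 RefSeq promoters of this length. The window of the second Gpm6a start, chr8:54954478-54954727, had none, and it lies closer to the gene span given above than the first. The Krt7 promoter held 4 GC boxes, a motif found in 32.7% of all promoters, and the others shown held none. AAGGTCA, the site of NR5A1 (4.08% of all promoters), and TGANTCA, the site of AP-1 (6.75%), had no match in these windows of the 7 genes. TATAAA (12.4%) matched only at the second start of Gpm6a, on the opposite strand. No overlap between these motifs occurred in the windows shown. These are letter matches in short windows and say nothing about binding.

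Krt18 was the broadest and most abundant of the 10 genes in the embryo. Its capture mean was 93.5 RPKM at E10.5, then 49.8 and 53.6 at E11.5, 138.3, 91.4 and 130.6 at E12.5, 103.6 and 110.9 at E13.5, 160.1 and 76.9 at E16.5, and 19.8 and 33.6 at P6. Both P6 captures lay below all 10 embryonic captures, and E11.5 lay below the other embryonic stages. At 10 RPKM or more, the level taken here as a cell having the gene, Krt18 was found in 32 of 71 cells at E10.5, 36 of 106 at E11.5, 63 of all cells at E12.5, 41 of 106 at E13.5, 30 of 95 at E16.5 and 14 of 121 at P6. Its reads were concentrated even so, since in each embryonic capture the top 10% of cells held 53.2% to 76.1% of the summed Krt18 level.

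Krt8, the usual partner chain of Krt18, was lower throughout and built up later. Its capture mean was 4.16 RPKM at E10.5, then 14.95 and 11.95 at E11.5, 19.02, 43.2 and 22.5 at E12.5, 37.9 and 20.7 at E13.5, 55.8 and 29.6 at E16.5, and 9.67 and 10.1 at P6. The E10.5 capture was the lowest, and both P6 captures were lower than every capture from E11.5 to E16.5. Krt8 was found in 8 of 71 cells at E10.5, 17 of 106 at E11.5, 31 of all cells at E12.5, 33 of 106 at E13.5, 24 of 95 at E16.5 and 14 of 121 at P6. The mean of Krt18 exceeded that of Krt8 in all 12 captures, by 2.04 to 7.27 times in 11 captures and by 22.5 times at E10.5. A processed pseudogene, Krt8-ps, and a long non-coding RNA on the opposite strand, Gm36026, could share reads with Krt8, and how reads with several hits or strands were handled is not stated.

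Krt19 was in fewer cells than Krt18 at every stage, and its stage mean was highest at E16.5. Its capture mean was 4.08 RPKM at E10.5, then 3.46 and 1.001 at E11.5, 25.65, 1.77 and 9.27 at E12.5, 18.5 and 9.94 at E13.5, 59.2 and 22.1 at E16.5, and 0 and 0.567 at P6. The 2 E16.5 captures stood above both E13.5 captures but overlapped with E12.5, whose first capture lay above the second E16.5 capture, and P6 lay below every other capture. The share of cells with Krt19 was 8 of 71 at E10.5, 5 of 106 at E11.5, 18 of all cells at E12.5, 18 of 106 at E13.5, 24 of 95 at E16.5 and 1 of 121 at P6. Krt7, on the same chromosome as Krt8 and Krt18 but lower, had a mean of 0.00418 RPKM at E10.5, then 1.36 and 4.06 at E11.5, 3.79, 6.11 and 3.03 at E12.5, 6.57 and 6.48 at E13.5, 9.88 and 4.62 at E16.5, and 0.114 and 0.546 at P6. No cell had Krt7 at E10.5, where 0 of 71 cells allows a share of up to 4.23% (a limit of 3 counts, for counting error only). It was then found in 8, 11, 16 and 13 cells at E11.5, E12.5, E13.5 and E16.5, and in 2 at P6.

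Upk3b was the one member already common at E10.5 beside Krt18. Its capture mean was 16.2 RPKM at E10.5, then 3.53 and 10.2 at E11.5, 9.20, 25.3 and 12.4 at E12.5, 20.9 and 20.4 at E13.5, 20.5 and 14.4 at E16.5, and 2.19 and 12.46 at P6. The stages overlapped, and the second P6 capture lay above 4 embryonic captures. A single cell at 743 RPKM supplied 90.3% of the Upk3b summed over that P6 capture. Upk3b was found in 21 of 71 cells at E10.5, 9 of 106 at E11.5, 23 of all cells at E12.5, 21 of 106 at E13.5, 13 of 95 at E16.5 and 3 of 121 at P6. By capture, the shares of E11.5, E12.5 and E16.5 overlapped. The single E10.5 capture was highest (29.6%), followed by both E13.5 captures (20.8% and 18.9%), and both P6 captures were lowest (1.82% and 3.03%). The first E16.5 capture, at 18.2%, was close to E13.5.

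Upk1b appeared later and in fewer cells. Its mean was 0 RPKM at E10.5, then 0.817 and 3.29 at E11.5, 15.5, 2.42 and 5.13 at E12.5, 41.04 and 15.3 at E13.5, 30.3 and 22.5 at E16.5, and 0 and 0.00302 at P6. The E13.5 and E16.5 captures overlapped each other, and E16.5 lay above E12.5. Cells with Upk1b were 0, 2, 9, 13 and 4 in number at E10.5, E11.5, E12.5, E13.5 and E16.5, and 0 of 121 at P6. The E16.5 mean therefore rested on few cells, and 1 cell at 899 RPKM gave all of it in the second E16.5 capture.

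The mesothelial genes were each confined to a few cells. Muc16 averaged 0 RPKM at E10.5, then 3.54 and 0.631 at E11.5, 7.004, 12.1 and 10.1 at E12.5, 4.67 and 12.1 at E13.5, 16.1 and 7.20 at E16.5, and 0 and 1.15 at P6, with at most 7 cells at 10 RPKM in any capture. Single cells reached 642 RPKM, and in each capture that had Muc16 at least 67.5% of its summed level came from 1 cell. Lrrn4 averaged 3.10 RPKM at E10.5, then 0.929 and 2.59 at E11.5, 1.25, 0.528 and 0.838 at E12.5, 2.12 and 3.90 at E13.5, and 10.9 and 4.69 at E16.5, and it was 0 in all 121 P6 cells. Its share of cells at 10 RPKM was highest at E10.5, with 6 of 71 cells, against 3, 6, 5 and 5 cells of the larger groups at E11.5, E12.5, E13.5 and E16.5.

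Gpm6a peaked at E13.5, with means of 14.8 and 9.50 RPKM against at most 5.29 in any other capture. It was 0.176 RPKM at E10.5, then 1.14 and 5.29 at E11.5, 3.30, 2.19 and 0.0111 at E12.5, 3.06 and 1.61 at E16.5, and 0 and 1.42 at P6. Cells with Gpm6a numbered 8 of 106 at E13.5 and at most 3 at any other stage. Msln was barely present: its mean was 0.366 RPKM in the first E13.5 capture and 1.72 and 0.808 in the E16.5 captures, and at most 0.0237 in the other 9. In all, 1 cell at E13.5 and 2 cells at E16.5 had Msln at 10 RPKM, with a highest value of 94.8 RPKM. Only the first E16.5 capture lifted Msln over the minimum of 1 RPKM that a gene needed to be tested.

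**Figure D1:**
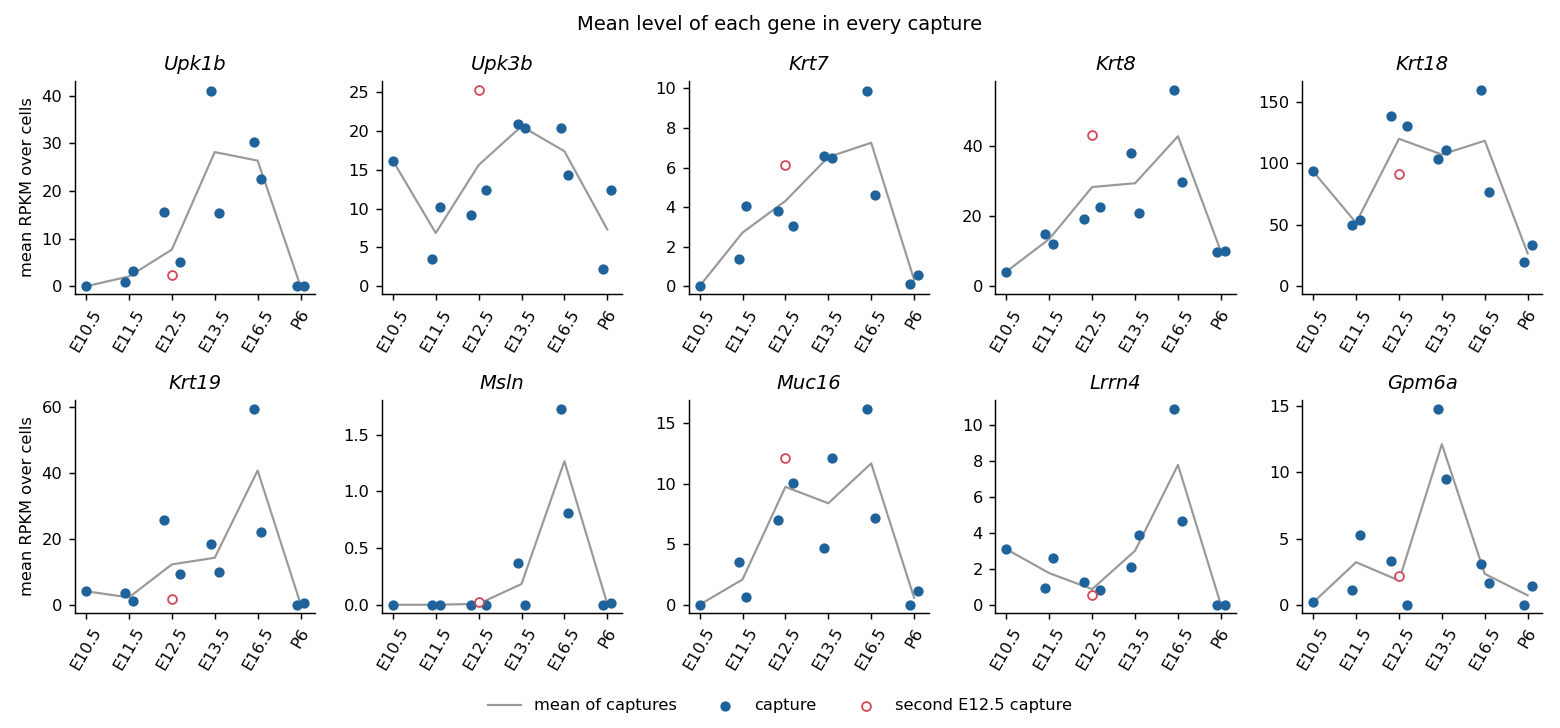
Mean RPKM over the cells of each capture (vertical axis, a scale per gene) by stage (horizontal axis) for the 10 genes. Points are captures, and the line joins stage means. The open point is the second E12.5 capture, which was shallow and had Y-linked transcripts in 40 of 53 cells. P6 lies at or near 0 for Upk1b, Krt7, Krt19, Msln and Lrrn4, while Krt8, Krt18 and Upk3b keep a level there.

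**Figure D2:**
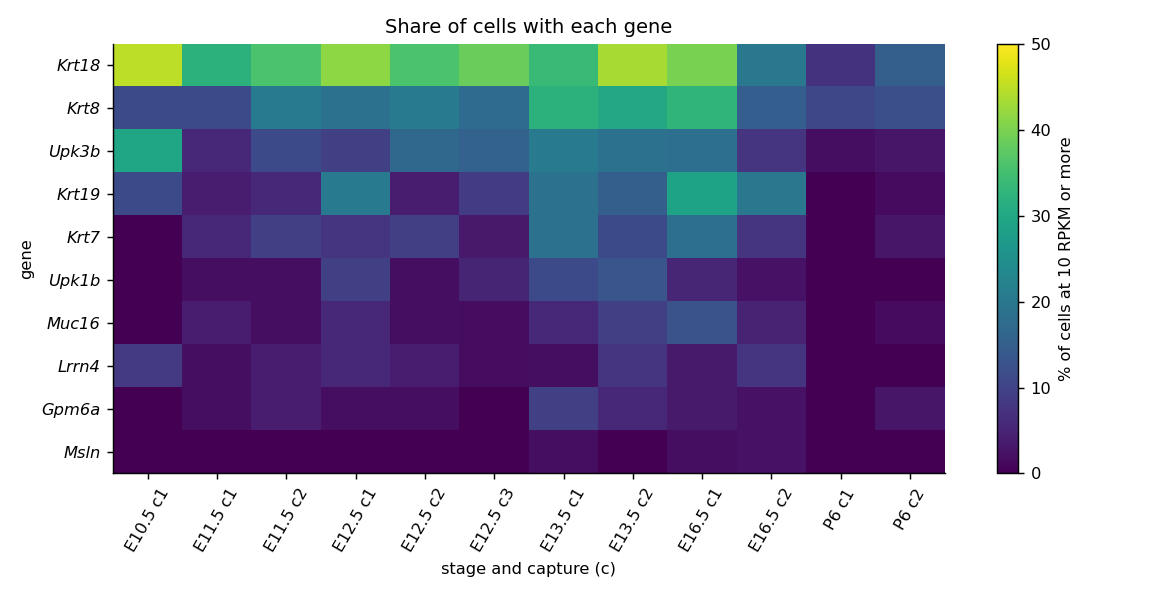
Share of cells at 10 RPKM or more (colour, in percent) for each gene (rows) in each capture (columns). Krt18 is the broadest row before P6, and Upk1b, Muc16, Lrrn4, Gpm6a and Msln stay at or below 13.2% in every capture.

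Most members stood higher at E13.5 than at E11.5. The study's stages were compared with limma fitted to the 12 captures with stage and sequencing series as terms, on log2(mean RPKM + 1) and, separately, on the arcsine-transformed share of cells at 10 RPKM or more. The labels do not say that captures of a stage came from separate litters, so a p-value here reflects spread between captures and that spread may be technical. No member passed a Benjamini-Hochberg adjusted p of 0.05 in any comparison in either fit. With E11.5 against E10.5, 5 members were higher and 4 lower in level and Msln was 0 at both. The background in that comparison was 0.969% of 19710 genes called, and 5.02% had an unadjusted p under 0.05. Krt7 had an unadjusted p under 0.05 there (limma, log2 difference 1.78 ± 0.73 SE, adjusted p = 0.933). In the share fit, where 1.43% of genes were called and 11.1% had an unadjusted p under 0.05, 2 members had such a p: Krt7, present in 8 of 106 cells at E11.5 against 0 of 71 at E10.5, and Upk3b, in 9 of 106 cells against 21 of 71. E10.5 has a single capture, so its spread was taken from the other stages.

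At E13.5 all 10 members were higher than at E11.5 in both fits, and for 8 of them both E13.5 captures lay above both E11.5 captures in mean level, which was so for 21.2% of all genes tested. The median difference over the members was 1.36 on the log2 scale, against 0.01 over all genes. Limma called 0 of 19710 genes in level (0.00%) and 0.741% in share, and 0 members in either. At an unadjusted p under 0.05, 3 members were higher in level where 3.32% of genes were: Upk1b by 3.23 ± 0.87 (SE), Gpm6a by 1.81 ± 0.72 and Krt18 by 1.04 ± 0.43. Their adjusted p was 0.543, 0.896 and 0.927. In share, 3 members were higher at that level, where 5.17% of genes were: Upk1b, Krt8 and Upk3b. Between E12.5 and E11.5, 9 members were higher and 1, Lrrn4, lower in level, with 2 (Krt18 and Muc16) at an unadjusted p under 0.05 and 0 called, as for all genes (0.00%, and 3.50% higher at an unadjusted p under 0.05). In share, 8 members were higher and 1 lower, and 0 had an unadjusted p under 0.05, against 2.14% of all genes higher and 11.3% lower at that threshold and 0.675% called. Fitted E12.5 levels in these comparisons rest on the first and second captures of that stage. The second is the shallow capture that went against its XX label. Without that capture Krt19 stayed higher at E12.5, but without the first E12.5 capture the differences of Krt19 and Gpm6a were -0.11 and -0.20.

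By P6 the restricted members were almost gone from the sorted cells, and the 2 broad keratins remained in fewer of them. Cells that the sort rejected for lack of eGFP were not sampled, so these values do not show what such cells held at P6. For all 10 members both P6 captures had a lower mean than both E16.5 captures, which was so for 17% of all genes tested. The genes had been chosen with their low level at P6 in view, so these counts describe the list and give no independent evidence of direction. Both stages belong to the later sequencing series, so the comparison does not cross series. Limma called 0.289% of genes in level and 0.553% in share, and 0 members in either. At an unadjusted p under 0.05, 8 members were lower in level, against 4.47% of all genes, and 8 in share, against 5.28%, Msln among them in both. The median difference over the members was -2.32 on the log2 scale, against 0 over all genes.

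The largest differences were those of Krt19 and Upk1b. Krt19 had a mean of 0 and 0.567 RPKM in the P6 captures, against 59.2 and 22.1 in the E16.5 captures, a log2 difference of -4.90 ± 1.08 (SE, limma, unadjusted p = 0.00261, adjusted p = 0.167). Upk1b had 0 and 0.00302 RPKM at P6, against 30.3 and 22.5 at E16.5, a difference of -4.76 ± 0.87 (unadjusted p = 0.000863, adjusted p = 0.111). Lrrn4 followed with -3.04 ± 0.58 (adjusted p = 0.121), Muc16 with -3.02 ± 0.78 (adjusted p = 0.241) and Krt7 with -2.58 ± 0.59 (adjusted p = 0.189). Krt18 differed by -2.06 ± 0.43 (adjusted p = 0.149), Krt8 by -1.94 ± 0.52 (adjusted p = 0.261) and Msln by -1.14 ± 0.26 (adjusted p = 0.176). Upk3b, at -1.47 ± 0.81 (unadjusted p = 0.11), and Gpm6a, at -1.06 ± 0.72 (unadjusted p = 0.181), were the 2 members past neither threshold in level. On this scale the change of low genes such as Msln is understated. Msln was tested only because of its level in the first E16.5 capture, where 1 cell held all of it, so its difference is a description and no test of a loss by P6.

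For 9 of the 10 members the share of cells was lower in both P6 captures than in both E16.5 captures. How many of all genes had this pattern was not computed, so the count only describes the list. For several members it rests on few E16.5 cells. Krt19 was in 1 of 121 cells at P6 and 24 of 95 at E16.5, Upk3b in 3 and 13, Krt7 in 2 and 13, Muc16 in 1 and 9, Upk1b in 0 and 4, Lrrn4 in 0 and 5, and Msln in 0 and 2. Gpm6a, in 0 and 2 cells of the P6 captures and 2 and 1 of the E16.5 captures, overlapped. A count of 0 in the 55 and 66 cells of the P6 captures allows shares of up to 5.45% and 4.55%. Krt8 was in 14 of 121 cells at P6 (6 of 55 and 8 of 66 by capture) and 24 of 95 at E16.5 (18 of 55 and 6 of 40), an unadjusted p of 0.0781 in limma's share fit. Against E12.5, a comparison that rests on capture 3 of E12.5 because of the series term, 8 members were lower at P6 and 2 higher. Of all genes, 55.65% were lower. No member was called where 1.53% of genes were. Krt18, Muc16 and Upk1b had an unadjusted p under 0.05 in that comparison, where 6.33% of all genes were lower at that level. In share, 8 were lower and 1 higher, where 64.38% of all genes were lower. At an unadjusted p under 0.05, 3 were lower (Krt18, Upk1b and Upk3b), against 8.67% of all genes, and 1.54% of all genes were called. Over all stages at once, the F test called 1.37% of genes in level and 3.58% in share, and 0 members; 9 and 5 members had an unadjusted p under 0.05, against 11.7% and 18.1% of all genes. With capture 1 or capture 2 of E12.5 left out, Upk1b passed that F test in level (adjusted p = 0.0315 and 0.0391) and in share (0.0259 and 0.0307). Those runs called more of all genes too: 7.62% and 4.24% in level, and 6.54% in share without capture 1. The calls are therefore not particular to Upk1b.

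**Figure D3:**
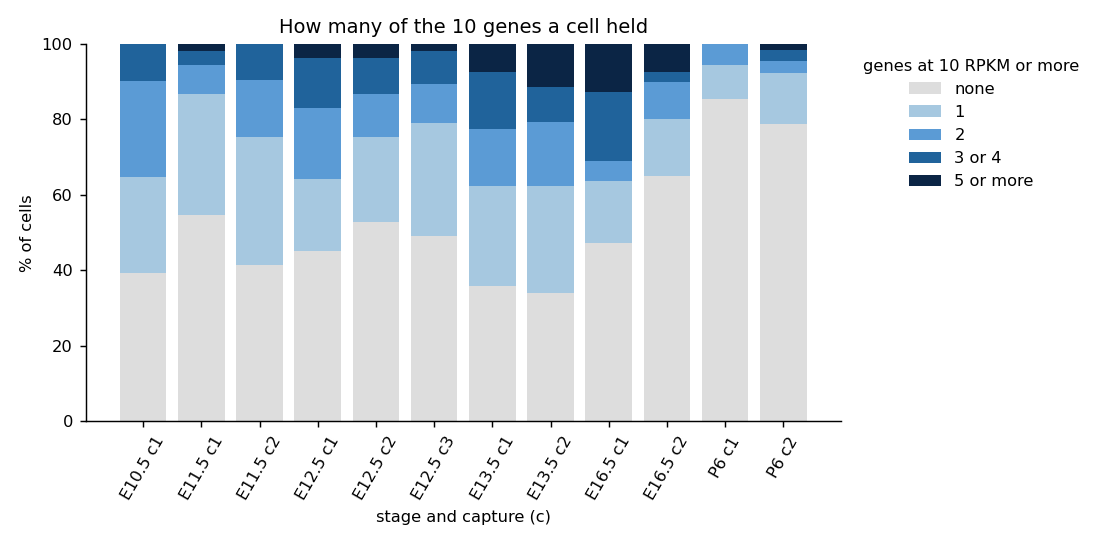
Share of cells (vertical axis, percent) in each capture (horizontal axis) that held none, 1, 2, 3 or 4, or 5 or more of the 10 genes at 10 RPKM or more. Cells with 5 or more are most frequent at E13.5 and E16.5, and 81.8% of P6 cells held none.

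Counted by stage, cells that held several of the genes were most frequent at E13.5 and E16.5. Cells with 3 or more members numbered 7 of 71 at E10.5, 8 of 106 at E11.5, 22 of all cells at E12.5, 23 of 106 at E13.5, 21 of 95 at E16.5 and 3 of 121 at P6. Cells with 5 or more numbered 0, 1, 5, 10, 10 and 1 at those stages. The 2 E16.5 captures differed, with 17 of 55 and 4 of 40 cells holding 3 or more. In the E13.5 cells with 3 or more members a median of 7010 genes was detected, against 7188 in the other E13.5 cells, and at E16.5 the medians were 5418 and 4638. No doublet caller was run, and the labels mark no doublets, so chambers with more than 1 cell were not removed.

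Of the 36 pairs of members with a correlation, Upk3b and Krt19 had the highest mean (r = 0.52 over 8 captures, range 0.09 to 0.80). Krt19 was present in 10 of 23 cells with Upk3b at E12.5 (43.5%, exact 95% interval 23.2 to 65.5) and in 8 of 140 cells without it (5.71%, 2.5 to 10.9). At E13.5 it was in 11 of 21 cells with Upk3b (52.4%) and 7 of 85 without (8.24%). At E16.5 all 13 cells with Upk3b had Krt19 (100%, interval 75.3 to 100), in both captures (10 of 10 and 3 of 3), against 11 of 82 cells without (13.4%, 6.89 to 22.7). Without the second E12.5 capture the E12.5 counts were 8 of 14 and 8 of 96. At E10.5, 3 of 21 cells with Upk3b and 5 of 50 without had Krt19. Intervals cover counting error only, and cells of a capture are not independent samples of a stage.

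Within the Krt19 cells of E16.5, those with Upk3b held several other members more often in number than those without, but not at every stage. Of the 24 E16.5 cells with Krt19, 13 had Upk3b and 11 did not. Krt18 was in 12 of those 13 cells and 4 of those 11, Lrrn4 in 4 and 0, Gpm6a in 3 and 0, Muc16 in 6 and 3, Krt7 in 5 and 3, and Krt8 in 7 and 5. At E12.5, with 10 Krt19 cells that had Upk3b and 8 that did not, Krt7 was in 5 and 1, but Muc16 in 0 and 2, Lrrn4 in 1 and 2, Krt8 in 2 and 3, and Upk1b in 3 and 3. Of the E13.5 cells with Krt19, 11 had Upk3b and 7 did not. Krt18 was in 6 of those 11 and all 7 of the others, the reverse of E16.5. The other counts were Krt7 in 6 and 1, Upk1b in 5 and 1, Gpm6a in 5 and 1, Krt8 in 5 and 2, and Muc16 and Lrrn4 each in 2 and 0. None of these differences was tested. Against all 82 E16.5 cells without Upk3b, Muc16 was in 6 of 13 cells with it and 3 of 82 without, Krt7 in 5 of 13 and 8 of 82, Upk1b in 3 of 13 and 1 of 82, and Msln in 2 of 13 and 0 of 82. At E13.5 Upk1b and Krt7 were each in 9 of 21 cells with Upk3b, against 4 and 7 of 85 without. At E10.5 no cell with or without Upk3b had Krt7, Upk1b or Muc16, yet Krt18 was in 15 of 21 cells with Upk3b and 17 of 50 without.

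**Figure D4:**
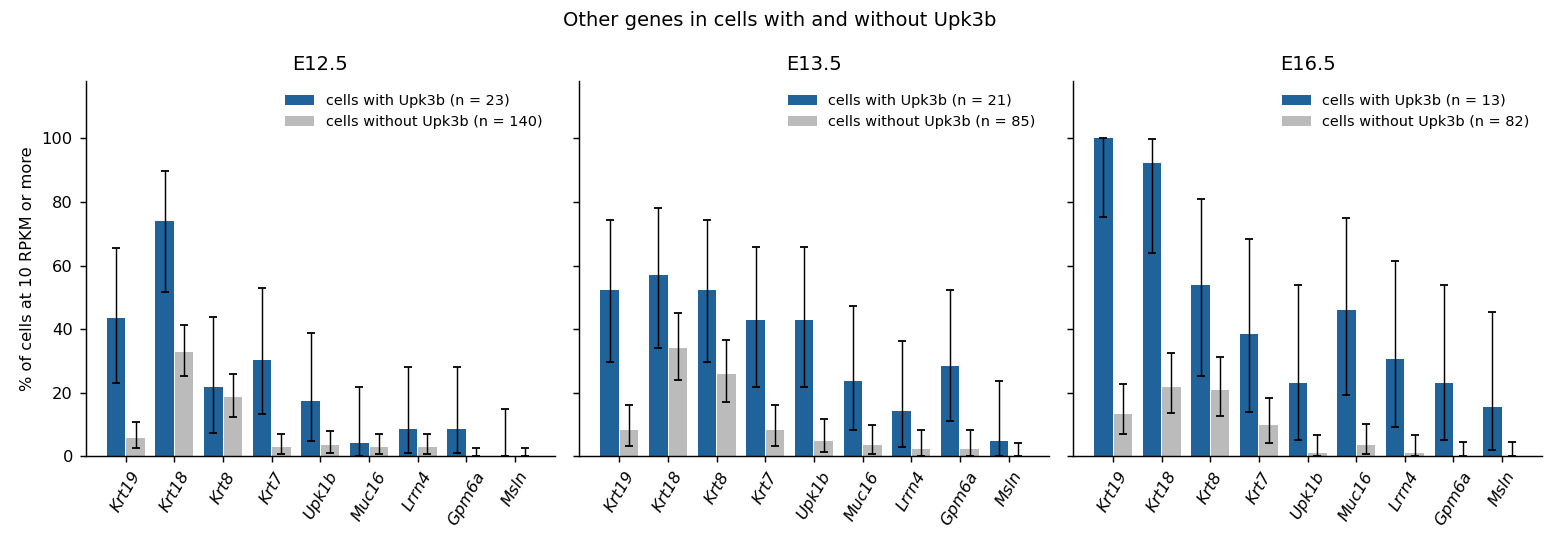
Share of cells (percent, with exact 95% binomial intervals as error bars) that had each of the other 9 genes at 10 RPKM or more, in cells with Upk3b (blue) and without it (grey), at E12.5, E13.5 and E16.5. Krt19 reaches 13 of 13 cells with Upk3b at E16.5, and Krt8 at E12.5 is in 5 of 23 cells with Upk3b and 26 of 140 without.

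At the cut of 10 RPKM, Krt8 and Krt18, though neighbours and partner chains, were often found apart. Over all stages 77 cells had both and 50 had Krt8 alone, so that 60.6% of cells with Krt8 also had Krt18. The correlation of their log2(RPKM + 1) across the cells of a capture was positive in all 12 captures, between 0.07 and 0.61. The share of Krt8 cells with Krt18 was 7 of 8 at E10.5, 8 of 17 at E11.5, 22 of 31 at E12.5, 17 of 33 at E13.5, 17 of 24 at E16.5 and 6 of 14 at P6. Among cells without Krt8, Krt18 was in 39.7%, 31.5%, 31.1%, 32.9%, 18.3% and 7.48% at those stages. All correlations here are descriptions over cells that share a library preparation and a depth.

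Ranked by their mean within-capture correlation with Upk3b over the 7 captures of E12.5, E13.5 and E16.5, 4 members stood among the first 12 of 12678 genes: Krt19 at rank 2 (mean r 0.58, range 0.33 to 0.80), Krt7 at rank 3 (0.48), Lrrn4 at rank 10 (0.40) and Krt18 at rank 12 (0.38). Upk1b (0.34), Gpm6a (0.34) and Muc16 (0.34) had ranks 20, 22 and 26. Krt8 had rank 424, at 0.16, and Msln was in too few cells to be ranked. The 10 nearest genes outside the list were Tm4sf5 (0.60, rank 1), Myrf (0.46), Frem2 (0.43), Cryab (0.43), Fah (0.41), Ildr2 (0.41), Sema3c (0.40), Hmga1 (0.39), Stk26 (0.38) and Bnc1 (0.37). Tm4sf5 encodes a tetraspanin-like membrane protein, Frem2 a protein of the epithelial basement membrane, Cryab a small heat-shock protein, Myrf a membrane-bound transcription factor and Bnc1 a zinc-finger protein known from mesothelium. In 7 of 7 captures the correlation was positive for Tm4sf5, Myrf, Frem2, Fah, Ildr2, Sema3c, Hmga1 and Stk26.

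Krt8 had other neighbours. Krt18 was at rank 1 (mean r 0.40, range 0.22 to 0.61) and Krt7 was at rank 17 (0.28), while Krt19 had rank 246, Upk3b 752, Muc16 1142, Upk1b 2399, Lrrn4 4404 and Gpm6a 9434. The 10 nearest outside the list were Amhr2 (0.35), Syngr2 (0.33), Rnf144b (0.33), Cercam (0.31), Ezr (0.30), Spint2 (0.30), Stxbp2 (0.30), Bex4 (0.29), Idh1 (0.29) and Reep1 (0.29). Amhr2 is the receptor of anti-Müllerian hormone, Ezr links the membrane to actin, and Spint2 inhibits serine proteases of epithelia. None of them was among the 10 nearest to Upk3b. Nr5a1 (0.24) and eGFP (0.22) correlated with Krt8 in the positive direction in 7 of 7 captures, and with Upk3b they averaged -0.08 and -0.11, positive in 2 of 7 each. Nr2f2, a transcription factor of stromal progenitors, averaged -0.22 with Krt8, negative in all 7 captures, and 0.09 with Upk3b. Foxl2, the granulosa determinant, averaged -0.15 with Upk3b, negative in all 7, and -0.02 with Krt8. Without the second E12.5 capture Krt19 was still at rank 2 for Upk3b and Krt18 at rank 1 for Krt8, whose rank for Upk3b was 350. Hmga1 and Bnc1 then left the 10 nearest to Upk3b, and Rnf144b, Cercam, Spint2 and Bex4 the 10 nearest to Krt8. Ranks for Krt8 also moved without that capture, to 8 for Krt7, 442 for Upk3b, 443 for Muc16, 2762 for Lrrn4 and 4012 for Upk1b, and the mean r of Krt19 was then 0.23, against 0.20 with all 7 captures.

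**Figure D5:**
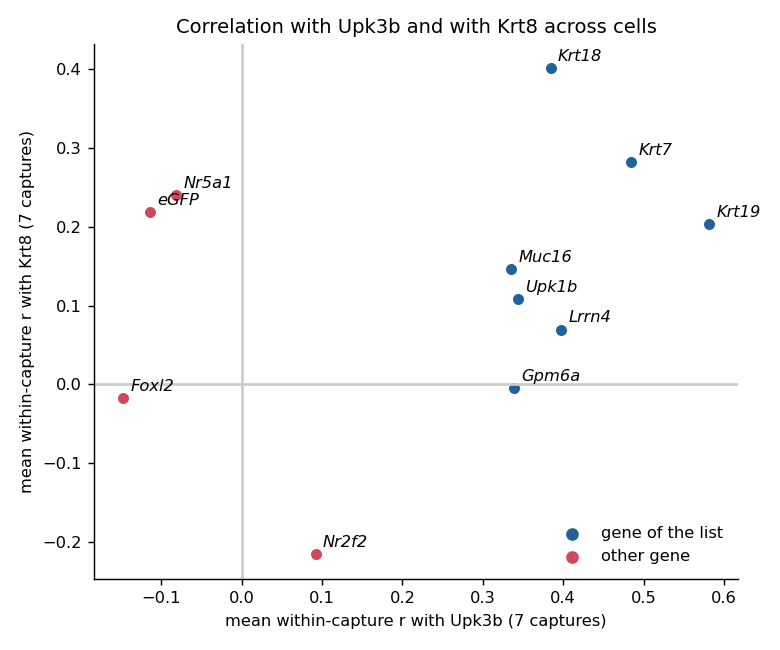
Mean within-capture Pearson r of log2(RPKM + 1) with Upk3b (horizontal axis) and with Krt8 (vertical axis) over 7 captures, for members (blue) and for Foxl2, Nr2f2, Nr5a1 and eGFP (red). Krt18 and Krt7 are high on both axes, Gpm6a is at 0.34 on one and close to 0 on the other, and Nr2f2 is lowest on the Krt8 axis at -0.22.

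Stromal genes were found in few of the P6 cells that had Krt18 or Krt8. Of the 14 P6 cells with Krt18, the stromal genes Dcn, Nr2f2, Tcf21 and Lum were in 1, 4, 0 and 0, against 64, 81, 51 and 50 of the P6 cells without Krt18. Inha, a subunit gene of the follicle hormone inhibin, was in 10 of the 14 cells with Krt18 and 50 of those without. The groups differ in size, since only 14 of 121 P6 cells had Krt18 and 14 had Krt8. The counts are therefore to be read against the size of each group. As a share of its group, Inha was more frequent in cells with Krt18 than in the other P6 cells. Those stromal genes were less frequent there. Of the 14 P6 cells with Krt8, Dcn was in 2 and Nr2f2 in 3, against 63 and 82 of the cells without Krt8. Inha was in 10, against 50. As shares of their groups, Dcn and Nr2f2 were again lower with Krt8 and Inha higher. These differences between cells were not tested. At E16.5 Dcn was in 10 of 30 cells with Krt18 and 28 of 65 without.

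A total of 4 P6 cells held a member other than Krt8 and Krt18 at 10 RPKM or more. In the first capture 1 cell had Upk3b at 119.9 RPKM with Krt18 at 88.6. In the second capture 1 cell had Upk3b at 743 RPKM with Krt18 at 142.7, Krt8 at 43.9 and Krt7 at 16.1, and eGFP at 1.70. Its Nr5a1 was at 0, so a cell with little reporter transcript was among those sampled. Another held 5 members, Krt8 at 81.99, Upk3b at 79.5, Muc16 at 75.96, Krt19 at 34.1 and Gpm6a at 23.1. The fourth had Krt18 at 1172 RPKM, Krt8 at 295, Gpm6a at 70.9 and Krt7 at 19.96, and also Dcn at 263 and Nr2f2 at 59.7, whereas in the rest Dcn was at most 0.74 RPKM.

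Of the related genes outside the list, the other uroplakins were low in the embryo, while Krt20 was near the level of Krt7 at E13.5 and E16.5. The 4 other uroplakins, Upk1a, Upk2, Upk3a and Upk3bl, summed to at most 3.70 RPKM in any embryonic capture. All 4 were at 0 in both E16.5 captures and in the second P6 capture. In the first P6 capture Upk3a alone reached 8.69 RPKM, the highest sum of any capture. Krt20, a keratin of simple epithelia, averaged 6.53 ± 3.87 RPKM at E13.5 and 6.46 ± 4.32 at E16.5 (SD, n = 2 captures each), with 6 and 5 cells at 10 RPKM, beside 6.53 and 7.25 RPKM for Krt7. Krt20, Krt23 and Krt80 were at 0 in both P6 captures. Muc4 and Mslnl were at 0 in all 12 captures. At P6 against E16.5, 47.67% of all genes were lower in level and 0.289% were called. Of 14 other surface epithelial genes, 11 were lower and 2 higher, with 0 called and a median difference of -1.95 on the log2 scale. Of the 4 most abundant, Gng13 differed by -4.84 (limma, adjusted p = 0.145), Wt1 by -0.96, Pdpn by -0.61 and Aldh1a1 by 0.51. Of 12 adhesion and polarity genes 11 were tested, 8 were lower, 2 higher and 0 called. The epithelial marker Cdh1 was at 0 in both P6 captures, and among the embryonic captures at 0 in the first of E16.5, both of E13.5 and the first of E12.5; its highest capture mean was 2.79 RPKM, from 1 cell in capture 3 of E12.5 almost alone.

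Marker sums of other cell types also differed between these stages. The 6 genes of growing follicles summed to 1944 and 830 RPKM in the P6 captures, against 27.3 and 30.6 in the E16.5 captures. Limma called 4 of the 6 higher at P6, where 0.203% of all genes were called higher. The 6 stromal genes summed to 1136 and 2133 RPKM at P6, against 569 and 858 at E16.5, with 6 higher and 0 called. The part of these shifts in the lower shares of the members was not tested. At E10.5 the 7 mesonephric genes summed to 70.2 RPKM, against 4.86 to 24.2 RPKM in the captures of E11.5, E12.5 and E13.5, and Cdh16 and Emx1 were at 0. Within E10.5, Pax8 and Lhx1 were each in 2 of 21 cells with Upk3b and 17 of 50 without it.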

How the data were processed

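Single cells sorted for eGFP were captured on C1 chips and turned into SMARTer and Nextera XT libraries, per the labels' protocols. The authors deposited 1 table of 663 libraries, read here as RPKM from its values (not whole, unequal totals, steps that depend on the gene), since its header names no unit. The build was GRCm38.p3 (mm10), per the submitters' processing notes; aligner, counter, annotation and strand setting: not given in the sources used here. Of 43347 names, 27 turned into dates were left out. A repeat library (r = 0.996 with its first) was averaged with it. Identifiers came from GENCODE vM21.

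Cells are not replicates, so values were averaged per capture. Limma 3.58.1 in R 4.3.3, with an intensity trend, fitted stage and sequencing series to 12 captures (5 residual degrees of freedom) for 19710 genes reaching a mean of 1 RPKM in some capture, on log2(mean RPKM + 1) and on arcsine-transformed shares of cells at 10 RPKM or more. P-values were adjusted over all genes at 0.05 with the Benjamini-Hochberg method. The code was tested on simulated data. Coexpression was described by counts and within-capture correlations. Nearest genes were the 10 highest mean correlations over 7 captures, among genes at 10 RPKM in at least 10 cells, without provisional names. From each list of markers, at most 4 genes by mean level were named, and others were chosen after their values were seen. The members and lists were chosen with earlier results of these data known. Pseudocount, filters, thresholds, series term and captures were varied.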

Additional observations from a re-analysis of the deposited data

How the results depend on the processing

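For P6 against E16.5, all 10 members stayed lower in both fits under every alternative run. For E13.5 against E11.5 no member turned lower in level, but Msln was 0 at both stages without the first E13.5 capture. Other differences, none of them called, changed sign. For E12.5 against E11.5, Gpm6a (0.01 as reported) was -0.14 with means over cells of log2 values, -0.25 with cells rescaled, -0.61 without the series term, and between -0.76 and 0.79 when single captures were left out; Krt19 (1.52) was then between -0.11 and 3.16. For P6 against E12.5 without the series term, Msln was -0.00088 and Gpm6a -0.63; leaving out captures gave -0.016 to 1.26 for Gpm6a (0.62 as reported) and -2.07 to 0.0102 for Upk3b (-1.03).

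The number of called members was 0 in the results above and 1 in few settings. With a pseudocount of 0.1 RPKM, Upk1b was called for P6 against E16.5 (limma, adjusted p = 0.0458) and over all stages in level (0.0467). Without the series term, Krt18 was called for P6 against E12.5 (0.0386) and Upk1b over all stages in share (0.0483). Leaving out single captures gave 0 to 1 called members for P6 against E16.5 and over all stages in both fits, and for E13.5 against E11.5 in share. Of these, Upk1b is given above, and Msln, tested only because of its E16.5 level, supports nothing.

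The percentage of all genes called moved more. In level, the filter on 2 captures gave 0.00592% (E11.5 against E10.5), 0.00592% (E12.5 against E11.5), 0.231% (P6 against E12.5), 0.0889% (all stages). No filter gave 3.71% (E11.5 against E10.5), 0.155% (E12.5 against E11.5), 0.178% (E13.5 against E11.5), 2.62% (P6 against E12.5), 5.59% (all stages). Means over cells of log2 values gave 2.26% (E11.5 against E10.5), 0.0304% (E13.5 against E11.5), 0.649% (P6 against E16.5), 0.452% (P6 against E12.5), 2.48% (all stages). No series term gave 0.482% (E11.5 against E10.5). The later series alone gave 0.00% (P6 against E16.5), 3.73% (P6 against E12.5). Leaving out single captures gave 1.08 to 2.17% (E11.5 against E10.5), 0.00 to 8.18% (E12.5 against E11.5), 0.00 to 1.18% (E13.5 against E11.5), 0.132 to 1.93% (P6 against E16.5), 1.56 to 3.03% (P6 against E12.5), 1.09 to 7.62% (all stages). In share, a threshold of 1 RPKM gave 0.452% (E11.5 against E10.5), 0.00% (E12.5 against E11.5), 0.00% (E13.5 against E11.5), 0.203% (P6 against E16.5), 0.193% (P6 against E12.5), 0.0812% (all stages). Any value above 0 gave 0.233% (E11.5 against E10.5), 0.00% (E12.5 against E11.5), 0.00% (E13.5 against E11.5), 0.00% (P6 against E16.5), 0.00% (P6 against E12.5), 0.00% (all stages). No series term gave 0.355% (E11.5 against E10.5), 0.330% (E12.5 against E11.5), 0.462% (E13.5 against E11.5), 6.36% (all stages). Leaving out single captures gave 1.43 to 2.52% (E11.5 against E10.5), 0.660 to 3.78% (E12.5 against E11.5), 0.731 to 1.68% (E13.5 against E11.5), 0.548 to 1.87% (P6 against E16.5), 1.57 to 2.80% (P6 against E12.5), 4.65 to 6.54% (all stages). The cause was not tested.

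With a threshold of 1 RPKM, Krt19 was in 46.4%, 60% and 100% of Upk3b cells at E12.5, E13.5 and E16.5. Leaving out single captures, a choice made for all but 1 of them after seeing the data, gave 35.7% to 57.1%, 40% to 63.6% and 100% at those stages, and for the share of E16.5 cells with 3 or more members 10% to 30.9%. The depth of the second E12.5 capture, where 1 Krt18 read was worth 4.72 RPKM, limits what a level under 10 RPKM shows there. No paired analysis was possible because captures of different stages share no replicate number in the labels; the sequencing series that titles share is already a term of the fits.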
